A study of Mus musculus with 4 samples.

Results

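The 4 libraries of this study of C2C12 myotubes carry the replicate number 1 or 2. The comparison here sets the 2 libraries numbered 1 (1 vehicle, 1 dexamethasone) against the 2 numbered 2 (1 vehicle, 1 dexamethasone), across every measured gene. C2C12 is an established mouse line of myoblasts, labelled as female, whose cells fuse into multinucleated myotubes. Every library came from steroid-deprived myotubes with no genetic change named in the labels: the vehicle libraries were exposed to carrier (0 µM dexamethasone) and the dexamethasone libraries to 1 µM of this synthetic glucocorticoid, both for 2 h. RNA was taken from the washed chromatin pellet of isolated nuclei, so that the reads come largely from transcripts still held at their genes. The labels give the replicate number alone and do not say whether it marks a culture, a day or a batch, or whether the libraries of 1 number share any of these. The p-values therefore measure only the spread between these libraries, which may be technical, and a culture cannot be told apart from anything else that went with the number.

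Myotubes form when myoblasts leave the cell cycle, switch on the myogenic factors and then the genes of the sarcomere, the calcium store and muscle energy metabolism. Genes of the actin cytoskeleton of motile cells and of cell division are meanwhile turned down. The pace of this programme varies with culture conditions, and with it the demand for chaperones that fold myosin and actin and for mitochondrial respiration. Reads from chromatin report transcription in progress more than the pool of finished mRNA.

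Totals ran from 19631435 counts (vehicle 1) to 88596296 (dexamethasone 2), with 35116830 in vehicle 2 and 32463331 in dexamethasone 1, so vehicle 1 is the shallowest. Both replicate 1 libraries were shallower than both replicate 2 libraries, so depth went with the replicate number. The 14 myotube marker genes summed to 120000 and 113000 CPM (counts scaled to a fixed library total) in the replicate 1 libraries (vehicle, dexamethasone) and to 49100 and 46600 in the replicate 2 libraries, and none was at 0 in any library. Much of that sum is Ttn, the giant sarcomere protein, at 112000 and 105000 against 44400 and 42100 on the same scale. Values per gene below are CPM after TMM scaling (replicate 1 against replicate 2, vehicle before dexamethasone in each), which sets the libraries to 1 scale through the bulk of genes. Markers of other cells were low for endothelium (4.71 to 5.47 CPM summed over 10 genes) and macrophages (5.81 to 7.33 over 12 genes). Fibroblast markers summed to 213 and 261 CPM of the library total in the replicate 1 libraries and 351 and 362 in the replicate 2 libraries, with 2 of 12 at 0 in every library. Most of the sum was Pdgfrb and Gsn, the 2 of 10 tested that were called higher in replicate 2, and 3 others were called higher in replicate 1. Osteoblast and chondrocyte markers summed to 358 and 245 against 532 and 380, nearly all of it Runx2.

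Vehicle 1 stood apart from the other libraries by a set of neuronal genes. Snap25, a synaptic fusion protein, had 160 counts there and 1, 1 and 4 in vehicle 2, dexamethasone 1 and dexamethasone 2. Syt1, the calcium sensor of synaptic vesicles, had 245 counts against 3, 10 and 17, and Rbfox3, the neuronal NeuN antigen, had 30 against 3, 2 and 3. Snap25 and Rbfox3 did not pass the filter on low counts and were not tested. Among tested genes, 22 lay at least 4-fold above each of the other libraries in vehicle 1 (after adding 0.5 CPM), and 0 did so in any other library. The 9 neuron markers summed to 65.7 CPM in vehicle 1 and 11.2 to 19.6 in the others. Not every marker followed: Stmn2 was at 14.9 CPM in vehicle 1 and 12.8 in vehicle 2. Nefm was at 0.153 in vehicle 1 and 0.154 in dexamethasone 1. Of the 22 genes, 6 passed the test as higher in replicate 1 (Syt1, Erbb4, Gpm6a, Mapk10, Slc44a5 and Hdgfl3, picked out after their values were seen). In the dexamethasone pair alone their log2 ratios were 0.21 (Hdgfl3) to 1.17 (Erbb4), against 3.42 (Mapk10) to 6.74 (Syt1) in the vehicle pair, so these calls rest largely on vehicle 1. For this reason the ratio within the dexamethasone pair, which does not use vehicle 1, is given beside the medians of most lists below.

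A broad difference separated the replicate numbers in both treatments. Among 13285 tested genes, 5882 differed by replicate number with an adjusted p under 0.05 in edgeR's quasi-likelihood test with treatment in the model and with the same sign in the vehicle and dexamethasone pairs. Of these, 2937 (22.1% of tested genes) were higher in replicate 1 and 2945 (22.2%) higher in replicate 2. Most were modest: 973 (7.32%) were at least 1.5-fold higher in replicate 1 in each treatment and 696 (5.24%) at least 1.5-fold higher in replicate 2, and at 2-fold the counts were 420 and 172. The ratio had the same sign in both treatments for 82.4% of genes, and 57.1% of the variance of log2 CPM between libraries lay between the replicate numbers, 33.8% between the treatments and 9.08% in their interaction. Both replicate 1 libraries exceeded both replicate 2 libraries in 31.8% of tested genes, and the reverse held in 32.1%. A lack of overlap in a gene named below is therefore common. Each pair of libraries differed by far more than counting noise (chi-square per degree of freedom 44.7 to 224), so none was a copy of another.

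**Figure D1:**
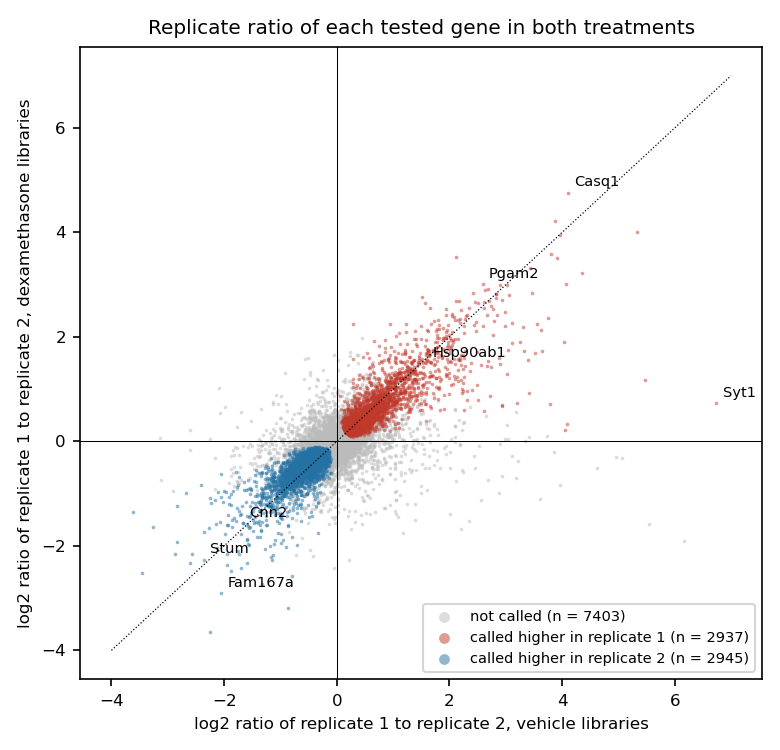
Log2 ratio of replicate 1 to replicate 2 for each of 13285 tested genes in the vehicle libraries (x axis) and the dexamethasone libraries (y axis), with the 2937 and 2945 called genes in colour and the line of equal ratios dotted. Most called genes lie near the dotted line, and Syt1 at 6.74 in vehicle and 0.74 in dexamethasone shows the genes that only the vehicle pair separates widely.

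The test rests on 1 residual degree of freedom, with the spread shared across genes. Without any 1 library the treatment term has to be dropped, and then 0 genes passed without vehicle 1, vehicle 2 or dexamethasone 2, and 38 without dexamethasone 1. An interaction of replicate number with treatment could not be tested. Scaling by library size alone moved the median of all genes to -0.196. Then 1695 genes were called higher in replicate 1 and 5479 higher in replicate 2 (23.6% of calls on the replicate 1 side, against a nearly even split with TMM). Directions below are therefore relative to the bulk of genes.

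The ratio also followed the base composition of the transcripts, in both treatments. Genes in the lowest of 10 equal bins of GC content (31.0 to 41.3% of the longest annotated transcript) had a median log2 ratio of 0.226, and those in the highest bin (57.8 to 70.4%) one of -0.347. In the lowest bin 44.2% of genes were called higher in replicate 1 and 3.7% higher in replicate 2, and in the highest bin 6.51% and 46.6%. The vehicle pair spanned 0.280 to -0.414 and the dexamethasone pair 0.184 to -0.30. The part of GC content in the results was not tested beyond a refit with a GC trend removed from each library, which was added after the gradient was seen. It left 5489 genes called, 2282 higher in replicate 1 (41.6% of calls) and 3207 higher in replicate 2, of which 4306 were among the 5882. Chromosome X, with the lowest median GC content of the chromosomes (44.6%), had 35.4% of its genes called higher in replicate 1 and 8.47% higher in replicate 2, and a median log2 ratio of 0.186. With the GC trend removed that median was 0.0247, beside -0.0559 over all genes. Xist, the RNA that coats the inactive X, stood at 4240 and 4273 CPM against 3376 and 3671 (log2 ratio 0.27), and with the GC trend removed it did not pass (0.0452, adjusted p = 0.40).

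**Figure D2:**
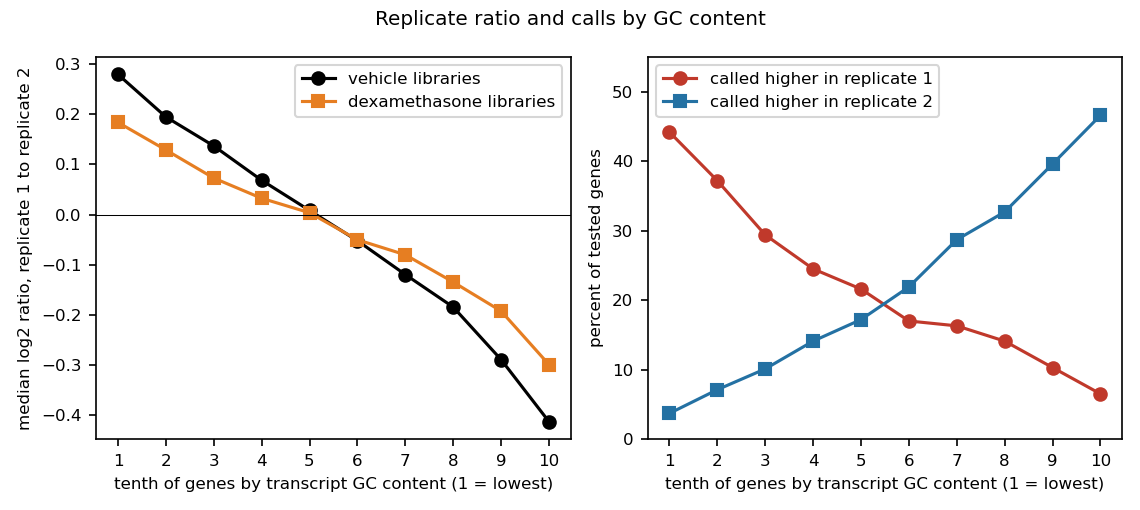
Left, the median log2 ratio of replicate 1 to replicate 2 in 10 equal bins of genes by transcript GC content, for the vehicle and the dexamethasone libraries; right, the percent of genes called in each direction. The median falls from 0.280 to -0.414 in vehicle and from 0.184 to -0.30 in dexamethasone as GC content rises.

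Genes that define skeletal muscle were higher in replicate 1, and the contractile list is given only as a scale for the others. Of 52 tested sarcomere genes, 46 were called higher in replicate 1 and 2 higher in replicate 2, with a median log2 ratio of 1.07 (1.12 in dexamethasone, 0.898 with the GC trend removed) where the median over all genes was -0.0072. In bulk samples such as these, a smaller share of myotube nuclei and less transcription per nucleus cannot be told apart.

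Many genes of the calcium store and the membrane cytoskeleton of the fibre were higher in replicate 1 as well. Casq1, the calcium-binding protein of the sarcoplasmic reticulum of fast fibres, stood at 46.5 CPM in vehicle 1 and 61.2 in dexamethasone 1, against 2.66 in vehicle 2 and 2.22 in dexamethasone 2. Both replicate 1 libraries were far above both replicate 2 libraries (log2 ratio 4.53 ± 0.15 SE, adjusted p = 3.9e-05), which made it the highest ratio of all genes named by size. Atp2a1, the fast-fibre calcium pump, was at 292 and 377 CPM against 94.2 and 121. Trdn, which ties calsequestrin to the release channel, was at 115 and 107 CPM against 42.1 and 42.8. Hrc, another luminal calcium-binding protein, was at 67.6 and 74.4 CPM against 28.7 and 33.8. These 3 were 1.19 to 1.64 higher on the log2 scale, with no overlap between the replicate numbers. The list was not uniform: of 29 tested genes of excitation-contraction coupling, 17 were called higher in replicate 1 and 6 higher in replicate 2 (median 0.50, 0.485 in dexamethasone, 0.400 with the GC trend removed). The release channel Ryr1 was at 1240 and 1204 CPM against 1165 and 1075 (adjusted p = 0.087), and with the GC trend removed it was called higher in replicate 1 at a log2 ratio of 0.36. The muscle sodium channel Scn4a at 47.7 and 45.7 CPM against 66.8 and 64.8 was called higher in replicate 2. Of 27 genes of the dystrophin complex and costamere, which anchor the sarcomere to the membrane, 20 were called higher in replicate 1 and 2 higher in replicate 2 (median 0.405, 0.375 in dexamethasone). Dmd, encoding dystrophin, stood at 2436 and 2513 CPM in the replicate 1 libraries (vehicle, dexamethasone) and 1417 and 1445 in the replicate 2 libraries (log2 ratio 0.79 ± 0.048 SE, adjusted p = 0.00022). Sptb, the erythrocyte-type beta spectrin also made in muscle, was at 9.12 and 14.2 CPM against 2.11 and 2.68 (log2 ratio 2.30 ± 0.13 SE, adjusted p = 0.00017).

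Regulators of myogenesis divided. Of 30 tested, 12 were called higher in replicate 1 and 8 higher in replicate 2 (median 0.0946, 0.0685 in dexamethasone, and -0.0937 when scaled by library size alone). With a correction for gene length the counts were 10 and 10. Myog, the factor that drives terminal differentiation, was at 263 and 294 CPM in the replicate 1 libraries (vehicle, dexamethasone) and 126 and 151 in the replicate 2 libraries (log2 ratio 1.01 ± 0.057 SE, adjusted p = 0.00017). Its partner Mef2c was at 1835 and 1517 CPM against 973 and 892 (log2 ratio 0.84 ± 0.057 SE, adjusted p = 0.00033). The late factor Myf6 (MRF4), below the count minimum for naming and picked out after its values were seen, had 66 and 124 counts in the replicate 1 libraries and 7 and 21 in the replicate 2 libraries (log2 ratio 4.20 ± 0.28 SE, adjusted p = 0.00028). Myod1, the determination factor, was also called higher in replicate 1, at 27.3 and 22.6 CPM against 22.4 and 18.7 (log2 ratio 0.28, and 0.545 with the GC trend removed). The fusion protein Mymk did not pass at 176 and 208 CPM against 173 and 208 (log2 ratio 0.01 ± 0.053 SE, adjusted p = 0.88). Markers of undifferentiated myoblasts and satellite cells were near the background, with 7 of 25 called higher in replicate 1 and 4 higher in replicate 2. Pax7, which marks satellite cells, was called higher in replicate 2 at 32 and 17.9 CPM against 39 and 22.9 (log2 ratio -0.32), and the treatments overlapped across the numbers, since vehicle 1 exceeded dexamethasone 2. Pax7 did not pass with the GC trend removed (-0.196, adjusted p = 0.058).

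**Figure D3:**
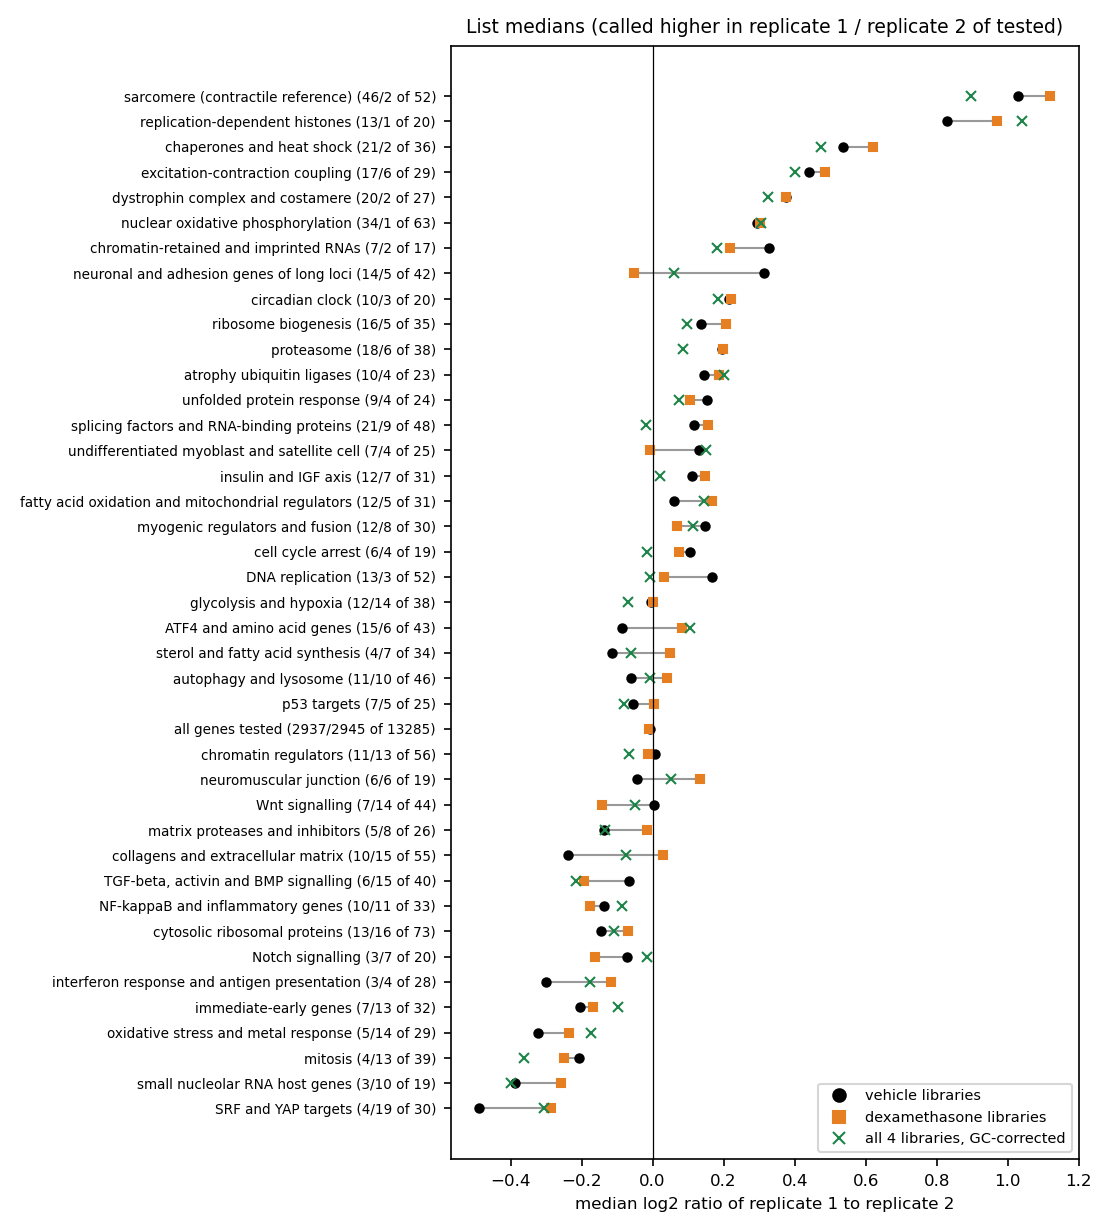
Median log2 ratio of replicate 1 to replicate 2 over the tested members of each gene list, in the vehicle libraries (circles), the dexamethasone libraries (squares) and all 4 libraries with the GC trend removed (crosses), with called counts in each direction beside the name. Sarcomere genes, replication-dependent histones and chaperones lie farthest to the right, and SRF and YAP targets, small nucleolar RNA host genes and mitosis genes farthest to the left.

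Some glycolytic genes split by isoform. Of 38 tested genes of glycolysis and hypoxia, 12 were called higher in replicate 1 and 14 higher in replicate 2, with a median of 0.0286 (-0.0679 with the GC trend removed) and calls in both directions. The muscle-enriched forms named here were on the replicate 1 side. Pgam2, the muscle phosphoglycerate mutase, stood at 16.7 CPM in vehicle 1 and 21.5 in dexamethasone 1, against 2.74 in vehicle 2 and 2.63 in dexamethasone 2 (log2 ratio 2.86 ± 0.13 SE, adjusted p = 8.3e-05). Eno3, the muscle enolase, was at 228 and 249 CPM against 104 and 107 (log2 ratio 1.2 ± 0.057 SE, adjusted p = 9.9e-05). Pfkm, the muscle phosphofructokinase, was at 182 and 190 CPM against 98.4 and 92.8 (log2 ratio 0.96 ± 0.062 SE, adjusted p = 0.00027). Pygm, which breaks down muscle glycogen, and Slc2a4, the insulin-responsive glucose transporter GLUT4, had log2 ratios of 0.97 and 1.26. In each of these 5 genes both replicate 1 libraries exceeded both replicate 2 libraries, as they did in 31.8% of tested genes. The counterparts that most cells use were on the other side or unresolved. Pfkl, the liver-type phosphofructokinase, stood at 8.37 and 11.1 CPM in the replicate 1 libraries (vehicle, dexamethasone) and 20.2 and 20.3 in the replicate 2 libraries (log2 ratio -1.04 ± 0.11 SE, adjusted p = 0.0012). Eno1 was at 80.7 and 69.9 CPM against 104 and 92.8 (log2 ratio -0.39 ± 0.058 SE, adjusted p = 0.0032). Slc2a1, the basal transporter GLUT1, was at 17.5 and 16 CPM against 31.6 and 29.7 (log2 ratio -0.87 ± 0.073 SE, adjusted p = 0.00053). Pgam1 had a log2 ratio of -0.31 that did not pass (adjusted p = 0.059). Gpi1, Gapdh, Pkm and Ldha, glycolytic genes not set here against a muscle-enriched form, were called higher in replicate 2. Their log2 ratios were -0.88, -0.43, -0.38 and -0.28. With the GC trend removed Pkm did not pass (-0.165, adjusted p = 0.051) and Eno1 was at -0.181. Tpi1 and Aldoa went the other way at log2 ratios of 2.47 and 1.49, with Tpi1 at 39.7 and 42.6 CPM against 7.72 and 7.24. Other members of the list did not pass with the GC trend removed, among them Phka1 (-0.0855), Pfkp (0.123) and Pgk1 (0.0222), so the split describes only the genes named. The grouping into muscle-enriched and broadly expressed forms was made after the values were seen, and several of its members (Tpi1, Aldoa, Pfkm, Gapdh) overlap another annotated gene.

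**Figure D4:**
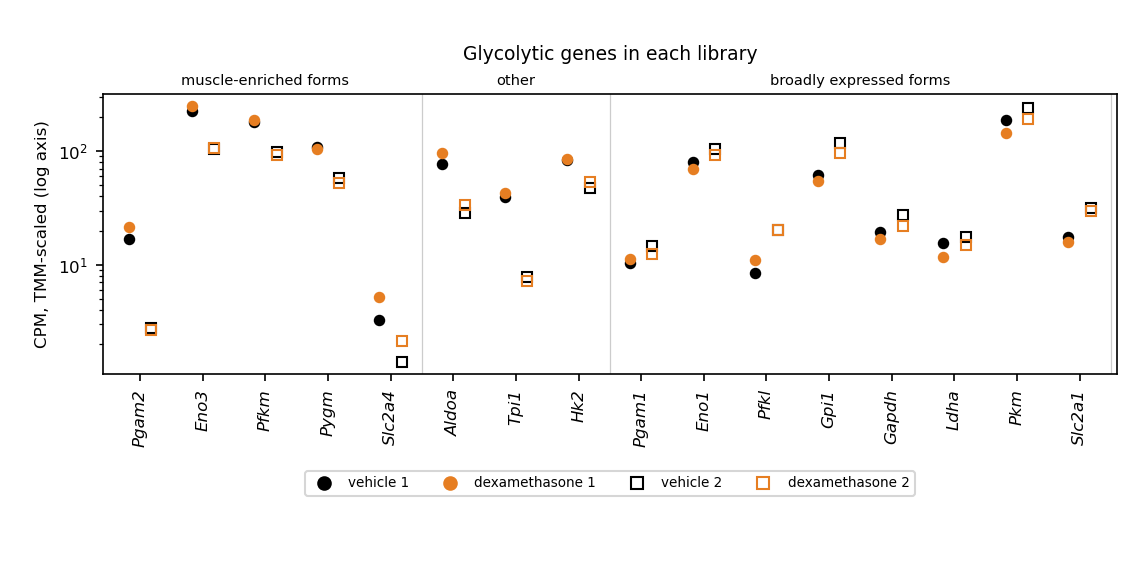
CPM of glycolytic genes in each library on a log axis, filled circles for the replicate 1 libraries and open squares for the replicate 2 libraries, black for vehicle and orange for dexamethasone. Muscle-enriched forms such as Pgam2 and Eno3 are higher in both replicate 1 libraries, and Pfkl, Gpi1, Eno1 and Slc2a1 are higher in both replicate 2 libraries.

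Genes of mitochondrial respiration leaned to replicate 1. Of 63 tested nuclear genes of oxidative phosphorylation, 34 were called higher in replicate 1 and 1, Uqcrq, higher in replicate 2, beside backgrounds of 22.1% and 22.2%. The median log2 ratio was 0.295 (0.302 in dexamethasone, 0.304 with the GC trend removed, 0.106 when scaled by library size alone). The calls were spread over the chain: 15 of 28 genes of complex I, which oxidises NADH, 1 of 3 of complex II, 5 of 7 of complex III, 6 of 12 of complex IV and 7 of 12 of ATP synthase. Atp5b, the catalytic subunit of ATP synthase, stood at 151 CPM in vehicle 1 and 164 in dexamethasone 1, against 57.8 in vehicle 2 and 66.8 in dexamethasone 2 (log2 ratio 1.34 ± 0.059 SE, adjusted p = 8.1e-05). Cox6a2, the muscle form of a complex IV subunit, was at 17.8 and 17 CPM against 6.25 and 7.3 (log2 ratio 1.34 ± 0.11 SE, adjusted p = 0.00048). The mitochondrially encoded subunits were not analysed here. Among 31 genes of fatty acid oxidation and mitochondrial regulators 12 were called higher in replicate 1 and 5 higher in replicate 2 (7 and 8 with library size alone). Ppargc1a, the coactivator of mitochondrial genes, was at 14.3 and 16.9 CPM against 5.11 and 6.67 (log2 ratio 1.40 ± 0.096 SE, adjusted p = 0.00034). The nuclear receptors of the list did not share a direction. Esrrg was higher in replicate 1 (log2 ratio 0.57) and Esrra and Ppard higher in replicate 2 (log2 ratios -0.55 and -0.61).

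Chaperones had the highest median of the gene lists after the sarcomere and histone lists. Of 36 tested, 21 were called higher in replicate 1 and 2 higher in replicate 2, with a median log2 ratio of 0.607 (0.537 in vehicle, 0.620 in dexamethasone, 0.473 with the GC trend removed). All 6 tested subunits of the TRiC chaperonin, which folds actin and tubulin, were called, at log2 ratios of 0.601 to 1.15. Cct5, the highest of them, stood at 127 CPM in vehicle 1 and 140 in dexamethasone 1, against 58.2 in vehicle 2 and 62.1 in dexamethasone 2 (log2 ratio 1.15 ± 0.057 SE, adjusted p = 0.00011). Hsp90ab1, the constitutive cytosolic HSP90, was at 205 and 263 CPM against 68.5 and 92.6 (log2 ratio 1.54 ± 0.057 SE, adjusted p = 5e-05), while its inducible relative Hsp90aa1 had a log2 ratio of 0.17 and did not pass. Cryab, the small heat shock protein that binds desmin and titin, stood at 68.7 and 105 CPM in the replicate 1 libraries (vehicle, dexamethasone) and 22.2 and 31.1 in the replicate 2 libraries (log2 ratio 1.70 ± 0.066 SE, adjusted p = 5.8e-05). Its relative Hspb7 was at 12.4 and 22.9 CPM against 4.51 and 8.14 (log2 ratio 1.48 ± 0.09 SE, adjusted p = 0.00022). In each of these genes the replicate numbers did not overlap. Heat-inducible members did not share 1 direction. Hsph1, an HSP110 gene, was called higher in replicate 1 (log2 ratio 0.90). Hspa1a and Hspa1b, the inducible HSP70 genes, had log2 ratios of -0.68 and -0.37 without passing, and Dnajb1, Bag3 and Hspb1, which did not pass either, had 0.05, 0.11 and 0.61. Bag3 and Hspb1 passed as higher in replicate 1 with the GC trend removed (0.265 and 0.976). Hsf1, the master regulator of the heat shock response, was called higher in replicate 2 (77.8 and 82 CPM against 104 and 98.3, log2 ratio -0.34). Hsf2 was called higher in replicate 1 (log2 ratio 0.81).

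The other parts of protein turnover moved less. For the proteasome 18 of 38 genes were called higher in replicate 1 and 6 higher in replicate 2 (median 0.187, 0.199 in dexamethasone). With the GC trend removed the counts were 15 and 13 and the median 0.0859. With library size alone they were 13 and 16 with a median of -0.00155. Psmb6, a catalytic subunit, was clear by itself at 32.2 and 30.9 CPM against 10 and 10.8 (log2 ratio 1.59 ± 0.083 SE, adjusted p = 0.00012), and 5 of the 6 ATPases of the 19S cap were called higher in replicate 1. Ribosome biogenesis (16 and 5 of 35, median 0.201, 0.208 in dexamethasone) and splicing factors (21 and 9 of 48, median 0.140, 0.156 in dexamethasone) gave 14 and 5, and 12 and 15, with the GC trend removed. The splicing factor median then became -0.0194, and with library size alone it was -0.0482, with 10 and 20 called; for ribosome biogenesis the counts were then 8 and 11. Cytosolic ribosomal proteins were near the background (13 and 16 of 73), with single genes on both sides. Rpl8 was at 60.8 and 69.5 CPM against 20.9 and 25.7 (log2 ratio 1.48) and Rps10 at 12.7 and 13.5 CPM against 23.9 and 20.3 (log2 ratio -0.73). Small nucleolar RNA host genes leaned to replicate 2, with 3 of 19 called higher in replicate 1 and 10 higher in replicate 2 (median -0.344, -0.257 in dexamethasone), among them Snhg4 at 36.2 and 31.9 CPM against 54.3 and 49.3 (log2 ratio -0.61).

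Genes of the cell cycle did not move as 1 programme. Replication-dependent histones, a class made mainly in S phase and mostly without poly(A) tails, leaned to replicate 1. Only 20 of 42 passed the filter on low counts. Of these, 13 were called higher in replicate 1 and 1, H2ac20, higher in replicate 2 (median 0.992, 0.971 in dexamethasone, 1.04 with the GC trend removed); H2ac20 did not pass with the GC trend removed. H1f2, a linker histone, was at 26.1 and 26.9 CPM against 9.91 and 11.8 (log2 ratio 1.28 ± 0.087 SE, adjusted p = 0.00032). H2bc4 was at 15.8 and 16.7 CPM against 7.38 and 6.75 (log2 ratio 1.22 ± 0.098 SE, adjusted p = 0.0005). Many genes of this list are near-identical copies, so how reads were shared among them is uncertain, and 22 of the 42 were not tested. Of 6 MCM helicase genes, which open replication origins, 5 were called higher in replicate 1 (log2 ratios 0.297 to 0.775 over all 6). Mcm5 was at 5.69 and 5.47 CPM against 3.5 and 3.06 (log2 ratio 0.78 ± 0.14 SE, adjusted p = 0.0059). Over all 52 genes of DNA replication 13 were called higher in replicate 1 and 3 higher in replicate 2, with a median of 0.0874 that was 0.0317 in dexamethasone, -0.00635 with the GC trend removed and -0.101 with library size alone. Genes of mitosis lay on the other side. Of 39 tested, 4 were called higher in replicate 1 and 13 higher in replicate 2 (median -0.249, -0.248 in dexamethasone, and -0.363 with the GC trend removed). Cenpa, the histone of the centromere, stood at 1.07 CPM in vehicle 1 and 1.4 in dexamethasone 1, against 3.08 in vehicle 2 and 3.61 in dexamethasone 2 (log2 ratio -1.42 ± 0.19 SE, adjusted p = 0.0024). Ect2, which sets the cleavage furrow, was at 6.12 and 6.71 CPM against 13.7 and 15.2 (log2 ratio -1.18 ± 0.095 SE, adjusted p = 0.0005). Espl1, the protease separase, was at 2.2 and 2.13 CPM against 4.61 and 4.43 (log2 ratio -1.06 ± 0.16 SE, adjusted p = 0.003). In all 3 the replicate 2 libraries were above the replicate 1 libraries in both treatments. The condensin genes Ncapd2 and Smc4 were exceptions, called higher in replicate 1 at log2 ratios of 0.77 and 0.67, and the proliferation marker Mki67 had a log2 ratio of 0.14 that did not pass. Among arrest genes, the inhibitor Cdkn2c was higher in replicate 1 at 7.78 and 6.41 CPM against 3.35 and 3.42 (log2 ratio 1.04 ± 0.14 SE, adjusted p = 0.0023). Ccnd3, a cyclin kept in myotubes, was called higher in replicate 2 (log2 ratio -0.52) although its vehicle and dexamethasone levels differed more (122 and 454 CPM against 201 and 578).

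Genes controlled by serum response factor (SRF) and YAP, which answer actin assembly, cell spreading and stiffness, had the lowest median of the gene lists (with the GC trend removed, small nucleolar RNA host genes at -0.399 and mitosis genes at -0.363 were lower). Of 30 tested, 19 were called higher in replicate 2 and 4 higher in replicate 1 (median -0.407, -0.287 in dexamethasone, -0.307 with the GC trend removed, where the counts were 21 and 3). SRF binds the CArG box, CC and GG around 6 bases of A or T. It lay in the 250 bases before a RefSeq start of 8 of 27 list members with a promoter sequence (29.6%), against 1.4% of tested genes; the list was compiled from known targets, so this share describes the list. Both strands were searched. Boxes were found in 5 of 17 members called higher in replicate 2 and in 2 of 4 called higher in replicate 1 (counts too small to compare). The stretches around it in 4 of the members higher in replicate 2 are shown to set the motif beside the values (RefSeq promoters, GRCm38.p6, 5′ to 3′ on the gene's strand, the box in capitals).
Cnn2 promoter, chr10:79988504-79988593, plus strand: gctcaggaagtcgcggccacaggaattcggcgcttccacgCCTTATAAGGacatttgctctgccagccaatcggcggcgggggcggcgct
Actg1 promoter, chr11:120348536-120348625, minus strand: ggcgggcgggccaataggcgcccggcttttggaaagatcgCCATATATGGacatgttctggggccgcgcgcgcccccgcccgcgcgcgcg
Myl9 promoter, chr2:156775263-156775352, plus strand: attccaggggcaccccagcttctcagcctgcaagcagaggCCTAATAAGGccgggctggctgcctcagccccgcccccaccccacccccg
Srf promoter, chr17:46556175-46556284, minus strand: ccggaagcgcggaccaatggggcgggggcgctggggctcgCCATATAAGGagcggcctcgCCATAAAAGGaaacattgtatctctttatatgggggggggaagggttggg

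Cnn2, the calponin of non-muscle and smooth muscle actin, stood at 5.9 CPM in vehicle 1 and 4.7 in dexamethasone 1, against 18.8 in vehicle 2 and 14 in dexamethasone 2 (log2 ratio -1.62 ± 0.098 SE, adjusted p = 0.00022). Actg1, the non-muscle gamma actin, was at 3.65 and 3.97 CPM against 9.38 and 7.36 (log2 ratio -1.09 ± 0.15 SE, adjusted p = 0.0024). Myl9, the regulatory light chain of non-sarcomeric myosin, was at 2.36 and 4.67 CPM against 8.56 and 9.1 (log2 ratio -1.29 ± 0.20 SE, adjusted p = 0.0038). Both replicate 2 libraries exceeded both replicate 1 libraries in all 3. Srf itself, whose promoter holds 2 boxes, was at 7.51 and 6.51 CPM against 14.6 and 12.6 (log2 ratio -0.95 ± 0.094 SE, adjusted p = 0.00086). Its transcript is GC-rich (64.4%), and with the GC trend removed its log2 ratio was -0.49. Ajuba, a LIM protein of the Hippo pathway, stood at 27.1 and 14.4 CPM against 68.9 and 35.7 (log2 ratio -1.33 ± 0.067 SE, adjusted p = 0.00011). Yap1 did not pass at 134 and 118 CPM against 139 and 122 (log2 ratio -0.05, and -0.193 with the GC trend removed, which passed), nor did Actb (log2 ratio -0.06). The smooth muscle genes Actg2 and Lmod1, outside this list but among the largest differences, were also higher in replicate 2. Actg2 was at 3.54 and 3.04 CPM against 11.9 and 13.6 (log2 ratio -1.99 ± 0.14 SE, adjusted p = 0.00033). Lmod1 was at 7.4 and 7.14 CPM against 22.1 and 28.2 (log2 ratio -1.81 ± 0.12 SE, adjusted p = 0.00026). The summed fibroblast markers, mostly Pdgfrb and Gsn, were also higher in replicate 2 (213 and 261 against 351 and 362 CPM). The median ratio of the 10 tested markers was 0.382, on the replicate 1 side, with 6 of 10 above 0, and Gsn did not pass with the GC trend removed (-0.16, adjusted p = 0.083). The part of fibroblast markers in the result was not tested.

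TGF-beta and immediate-early genes leaned the same way with smaller medians. Of 40 genes of TGF-beta, activin and BMP signalling, 15 were called higher in replicate 2 and 6 higher in replicate 1 (median -0.091, -0.194 in dexamethasone, -0.215 with the GC trend removed, where the counts were 20 and 4). The inhibitor Smad7 stood at 19.1 and 8.54 CPM against 38.5 and 18.2 (log2 ratio -1.05 ± 0.078 SE, adjusted p = 0.00041). Another, Ski, was at 260 and 186 CPM against 474 and 346 (log2 ratio -0.88 ± 0.053 SE, adjusted p = 0.00021). The activin receptor Acvr2b was at 15.7 and 10.7 CPM against 29.4 and 21.2 (log2 ratio -0.95 ± 0.078 SE, adjusted p = 0.00053). Within each treatment replicate 2 was higher in all 3, although Smad7 in vehicle 1 exceeded dexamethasone 2. The receptor Tgfbr1 went the other way at 152 and 174 CPM against 97.7 and 98.2 (log2 ratio 0.74 ± 0.066 SE, adjusted p = 0.00067). Among 32 immediate-early genes 13 were called higher in replicate 2 and 7 higher in replicate 1 (median -0.176, -0.167 in dexamethasone). With the GC trend removed the counts were 11 and 8 and the median -0.0965. Egr1, a growth factor-induced zinc finger gene, stood at 26.1 and 28.9 CPM against 44.4 and 53.2 (log2 ratio -0.83 ± 0.068 SE, adjusted p = 0.00052). Its relative Egr3 was at 4.45 and 2.23 CPM against 11.4 and 7.36 (log2 ratio -1.53 ± 0.14 SE, adjusted p = 0.0007). Fos had a log2 ratio of 0.63 that did not pass (adjusted p = 0.17). Collagens and other matrix genes were near the background (10 and 15 of 55, and 15 and 13 with the GC trend removed). Thbs1, a matrix protein that activates latent TGF-beta, was at 215 and 162 CPM against 450 and 338 (log2 ratio -1.06 ± 0.053 SE, adjusted p = 0.00011). Col25a1, a transmembrane collagen of muscle, went the other way at 1179 and 1098 CPM against 621 and 450 (log2 ratio 1.11 ± 0.088 SE, adjusted p = 0.00049). Notch (3 and 7 of 20) and Wnt genes (7 and 14 of 44) had medians of -0.167 and -0.0587 (-0.161 and -0.143 in dexamethasone), and the Notch median was -0.0151 with the GC trend removed.

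Antioxidant genes leaned to replicate 2 as well, with exceptions. Many antioxidant genes are targets of NRF2, a factor released from KEAP1 under oxidative stress. The list used here also holds genes of the metal response. Of 29 tested genes of oxidative stress and metal response, 14 were called higher in replicate 2 and 5 higher in replicate 1 (median -0.225, -0.234 in dexamethasone, -0.172 with the GC trend removed, where the counts were 14 and 4). Nqo1, a quinone reductase, stood at 2.09 CPM in vehicle 1 and 1.6 in dexamethasone 1, against 4.74 in vehicle 2 and 3.9 in dexamethasone 2 (log2 ratio -1.24 ± 0.17 SE, adjusted p = 0.0023). Srxn1, which repairs oxidised peroxiredoxin, was at 4.24 and 3.87 CPM against 8.91 and 9.43 (log2 ratio -1.19 ± 0.12 SE, adjusted p = 0.00092). Gsr, glutathione reductase, was at 20.5 and 17.6 CPM against 36.2 and 30.3 (log2 ratio -0.80 ± 0.07 SE, adjusted p = 0.00064). Txnrd1, thioredoxin reductase, was at 138 and 148 CPM against 217 and 224 (log2 ratio -0.63 ± 0.055 SE, adjusted p = 0.00062). No replicate 1 library reached a replicate 2 library in these 4 genes. Gclm and Gclc, the subunits of the enzyme that starts glutathione synthesis, were also called higher in replicate 2 (log2 ratios -0.53 and -0.43). Of the 29 genes, 10 had a ratio above 0. Exceptions included Sod2, the mitochondrial superoxide dismutase, at 16.5 and 17.5 CPM against 8.56 and 9.76 (log2 ratio 0.89 ± 0.087 SE, adjusted p = 0.00085), and Fth1, the ferritin heavy chain (log2 ratio 0.58). Nfe2l2, which encodes NRF2, was slightly higher in replicate 1 (log2 ratio 0.21, adjusted p = 0.035) and Keap1 slightly higher in replicate 2 (-0.27); with the GC trend removed neither passed. The metallothioneins Mt1 and Mt2 had log2 ratios of 0.17 and 0.50 that did not pass, though Mt2 had an adjusted p of 0.029 with the GC trend removed (log2 ratio 0.63). The core of the antioxidant element, TGACNNNGC on either strand, lay before 7 of 24 members with a promoter (29.2%) and before 13.9% of tested genes. The list was compiled from known genes of these responses, so this share describes the list. The core lay before 3 of the 10 called higher in replicate 2 and 0 of the 4 called higher in replicate 1 (counts too small to compare). The match before Txnrd1 lies on the opposite strand and is shown in capitals (RefSeq, GRCm38.p6).
Txnrd1 promoter, chr10:82859074-82859162, plus strand: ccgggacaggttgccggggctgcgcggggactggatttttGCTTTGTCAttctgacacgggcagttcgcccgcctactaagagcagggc

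Clock genes differed between the replicate numbers in both directions. In the clock, ARNTL with CLOCK or NPAS2 switches on genes through the E-box CACGTG, among them the PER and CRY repressors and the receptors NR1D1 and NR1D2, which in turn repress Arntl. Of 20 tested genes, 10 were called higher in replicate 1 and 3 higher in replicate 2 (median 0.212, 0.220 in dexamethasone, 0.185 with the GC trend removed). Nr1d1 stood at 31.5 CPM in vehicle 1 and 25.3 in dexamethasone 1, against 18.2 in vehicle 2 and 14.1 in dexamethasone 2 (log2 ratio 0.82 ± 0.073 SE, adjusted p = 0.00066). Dbp, an output factor, was at 6.6 and 4.07 CPM against 4.06 and 2.51 (log2 ratio 0.70 ± 0.14 SE, adjusted p = 0.0087). Npas2 was at 18.6 and 16.9 CPM against 9.83 and 8.81 (log2 ratio 0.93 ± 0.084 SE, adjusted p = 0.00069). Ciart, a repressor of CLOCK-ARNTL, was at 3.81 and 7.07 CPM against 1.87 and 3.2 (log2 ratio 1.1 ± 0.15 SE, adjusted p = 0.0022). Nr1d1, Npas2 and Ciart did not overlap between the replicate numbers, while Dbp in dexamethasone 1 was level with vehicle 2. Arntl itself was higher in replicate 2, at 81.2 and 67.7 CPM in the replicate 1 libraries (vehicle, dexamethasone) and 124 and 95.8 in the replicate 2 libraries (log2 ratio -0.56 ± 0.061 SE, adjusted p = 0.0012), and so was Rora, which activates Arntl (log2 ratio -0.48). Per1 was called higher in replicate 2 at 15.6 and 91 CPM against 19.1 and 109, with a spread between treatments far above that between numbers, and its log2 ratio of -0.27 was near 0 with the GC trend removed. Per2, Cry1 and Cry2 had log2 ratios of 0.10, 0.11 and -0.15 that did not pass, though Per2 passed with the GC trend removed (0.183). With library size alone the counts were 6 and 5 and the median 0.0238. The E-box, which reads the same on both strands, lay in the 250 bases before a start of 5 of 16 members with a promoter (31.2%) and of 9.8% of tested genes. The list was compiled from known clock genes, so this share describes the list. The E-box was found in 2 of 9 called higher in replicate 1 and in 1 of 3 called higher in replicate 2 (counts too small to compare). Ciart, which has 3, is shown with the boxes in capitals (RefSeq, GRCm38.p6).
Ciart promoter, chr3:95882229-95882384, minus strand: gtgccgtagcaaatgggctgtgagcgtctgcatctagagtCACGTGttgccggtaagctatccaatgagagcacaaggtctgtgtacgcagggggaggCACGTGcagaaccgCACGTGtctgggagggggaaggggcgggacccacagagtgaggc

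**Figure D5:**
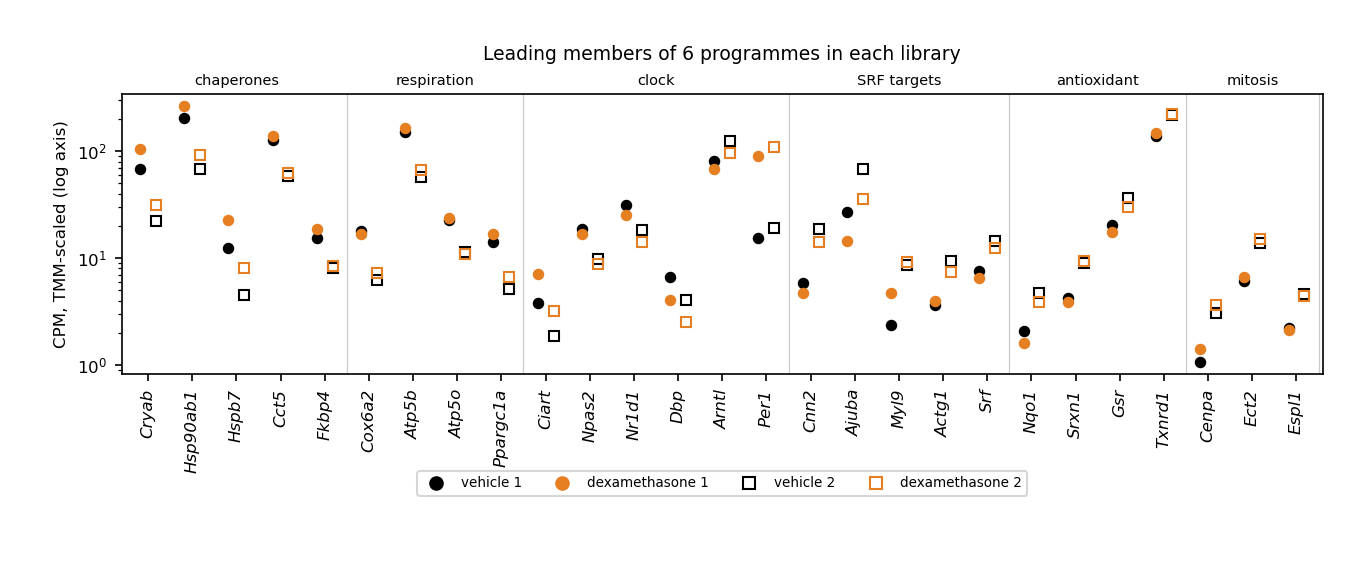
CPM of members of 6 programmes in each library on a log axis, filled circles for the replicate 1 libraries and open squares for the replicate 2 libraries, black for vehicle and orange for dexamethasone. Chaperones, respiration genes and most clock genes are higher in the replicate 1 libraries, and SRF targets, most antioxidant genes and mitosis genes in the replicate 2 libraries, within each treatment; Per1 differs more between treatments than between replicate numbers.

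Growth factor, stress and imprinted genes added single large differences. Igfbp5, the IGF-binding protein of differentiating muscle, stood at 1177 CPM in vehicle 1 and 1041 in dexamethasone 1, against 368 in vehicle 2 and 363 in dexamethasone 2 (log2 ratio 1.60 ± 0.06 SE, adjusted p = 5.1e-05). Igf2, an autocrine factor of myoblast differentiation, was at 99 and 103 CPM against 38.6 and 63 (log2 ratio 1.01 ± 0.14 SE, adjusted p = 0.0026). The imprinted genes Mest and Peg10 were likewise higher in replicate 1. Mest was at 20.1 and 8.97 CPM against 8.22 and 3.72 (log2 ratio 1.28 ± 0.096 SE, adjusted p = 0.00041) and Peg10 at 6.12 and 5.54 CPM against 2.79 and 2.17 (log2 ratio 1.25 ± 0.15 SE, adjusted p = 0.0016). Among 17 tested chromatin-retained and imprinted RNAs, 7 were called higher in replicate 1 and 2 higher in replicate 2. With the GC trend removed the counts were 6 and 4, and with library size alone 5 and 5. Within the IGF and insulin list 12 of 31 were called higher in replicate 1 and 7 higher in replicate 2 (7 and 13 with library size alone). Fgf21, a hormone that stressed muscle secretes, was at 24.3 and 25.9 CPM against 9.62 and 12 (log2 ratio 1.21 ± 0.089 SE, adjusted p = 0.0004). Its regulator Atf4 was at 121 and 125 CPM against 75.5 and 78 (log2 ratio 0.68 ± 0.056 SE, adjusted p = 0.00052). Their list of amino acid genes had 15 of 43 called higher in replicate 1 and 6 higher in replicate 2 (10 and 19 with library size alone). Targets of p53 were near the background, with 7 of 25 (28%) called higher in replicate 1 and 5 (20%) higher in replicate 2. Pmaip1 and Ccng1 were higher in replicate 1 (log2 ratios 1.74 and 1.17) and Bbc3 and Gtse1 higher in replicate 2 (log2 ratios -0.85 and -0.89), but with the GC trend removed Bbc3 did not pass (-0.367, adjusted p = 0.057). Inflammatory genes were split as well (10 and 11 of 33), with the NF-kappaB brake Tnfaip3 at 22.8 and 28.9 CPM against 12.2 and 12.8 (log2 ratio 1.05 ± 0.093 SE, adjusted p = 0.00064). The subunit Relb was at 13.9 and 14.2 CPM against 25.8 and 24.5 (log2 ratio -0.83 ± 0.079 SE, adjusted p = 0.00078). Calls were near or below the background in both directions for interferon and antigen presentation genes (3 and 4 of 28) and sterol synthesis (4 and 7 of 34). The same held for lysosome and autophagy (11 and 10 of 46) and chromatin regulators (11 and 13 of 56). The interferon list still had a median of -0.173 (-0.118 in dexamethasone), with 23 of its 28 genes below 0. With library size alone its counts were 1 and 15.

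The largest differences outside the contractile list included genes with no place in these lists. Several of those higher in replicate 1 are best known from neurons. Scn3a, a sodium channel, stood at 79.5 CPM in vehicle 1 and 77.3 in dexamethasone 1, against 12.2 in vehicle 2 and 12 in dexamethasone 2 (log2 ratio 2.69 ± 0.066 SE, adjusted p = 1.7e-05). Scn2a, another, was at 12.2 and 8.34 CPM against 0.553 and 0.857 (log2 ratio 3.70 ± 0.26 SE, adjusted p = 0.00036). Myt1l, a neuronal transcription factor, was at 7.78 and 3.77 CPM against 0.422 and 0.428 (log2 ratio 3.58 ± 0.30 SE, adjusted p = 0.00053). L1cam, an adhesion molecule of axons, was at 5.53 and 4.57 CPM against 0.659 and 0.782 (log2 ratio 2.75 ± 0.23 SE, adjusted p = 0.00053). All 4 were higher in dexamethasone 1, as in vehicle 1, than in either replicate 2 library, and their log2 ratios in the dexamethasone pair were 2.68, 3.22, 3.01 and 2.48. As a list, the 42 neuronal and adhesion genes of long loci had no stable lean. Of these, 14 were called higher in replicate 1 and 5 higher in replicate 2, but the counts were 5 and 12 with a correction for gene length, 10 and 10 with the GC trend removed and 8 and 11 with library size alone. The list's median was 0.313 in the vehicle pair and -0.0511 in the dexamethasone pair. Asb15, a muscle ubiquitin ligase adaptor, stood at 12.2 and 16.6 CPM against 1.42 and 2.32 (log2 ratio 2.92 ± 0.13 SE, adjusted p = 7.8e-05). Ppp1r3a, which targets a phosphatase to muscle glycogen, was at 26.7 and 25.5 CPM against 4.98 and 3.53 (log2 ratio 2.66 ± 0.12 SE, adjusted p = 8.6e-05). Pkhd1, known for polycystic kidney disease, had the most reads among these at 2199 and 2074 CPM against 357 and 352 (log2 ratio 2.59 ± 0.054 SE, adjusted p = 1.5e-05), and it overlaps another annotated gene. None of the last 3 overlapped between the replicate numbers. In the other direction, Fam167a was at 3.06 and 2.23 CPM against 12.9 and 17 (log2 ratio -2.56 ± 0.19 SE, adjusted p = 0.00041). Stum, a membrane protein, was at 23.7 and 24.2 CPM against 122 and 117 (log2 ratio -2.31 ± 0.066 SE, adjusted p = 2.9e-05). Erf, an ETS repressor, was at 3.11 and 2.4 CPM against 13.7 and 9.98 (log2 ratio -2.09 ± 0.12 SE, adjusted p = 0.00017). In each of these 3 both replicate 2 libraries were higher than both replicate 1 libraries.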

How the data were processed

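Chromatin-bound RNA of 4 libraries was measured as read counts per gene, deposited by the authors as whole numbers that are not normalized. Per the submitters' processing notes, TopHat2 2.0.13, SAMtools 1.1, HTSeq 0.6.1, DESeq2 1.18.1 and mm9 were used; the gene annotation, the counting mode and its strand setting are not given in the sources used here, and the labels name both a stranded total RNA kit and a stranded mRNA kit. Of 23333 rows, 51 repeats were dropped, leaving 23282 features, 5402 at 0 in every library; stretches at 0 are not read as silent.

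Genes passing filterByExpr (minimum count 10, minimum total 15) within treatment were modelled on treatment and replicate number after TMM scaling and tested with glmQLFTest, edgeR's quasi-likelihood test (edgeR 4.0.16, R 4.3.3), with Benjamini-Hochberg adjustment over all 13285. Called means adjusted p under 0.05 and the same sign in both treatments. Log2 ratios are replicate 1 over replicate 2, and those of each pair alone use a prior count of 2. The shallowest library, of 19631435 counts, limits precision for low genes, and no count has molecular identifiers. The 41 gene lists, 7 marker lists and the comparison itself were chosen with earlier results of these data known; 1603 of 1620 list entries matched the table. Named genes are the 15 most different in each direction with at least 100 counts in both higher libraries, up to 5 called members of each list, markers, and regulators; other members were named after their values were seen. A few genes that this rule names are not reported here. GENCODE M21 (GRCm38), matched on Ensembl identifier, gave GC content and overlaps, and RefSeq (GRCm38.p6), matched on symbol, gave promoters; they are not the build of the counts. Alternatives included DESeq2 1.42.0 and limma 3.58.1. The tests were tested on simulated data. Of the genes named, those whose exons overlap another annotated gene are Aldoa, Atp2a1, Ccnd3, Cox6a2, Cryab, Dbp, Esrra, Gapdh, Hdgfl3, Igf2, L1cam, Mest, Ncapd2, Nr1d1, Pfkm, Pkhd1, Snhg4, Sptb, Tpi1 and Xist; reads there may be shared.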

Additional observations from a re-analysis of the deposited data

Results flagged for a closer look

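For 12 gene lists the median log2 ratio of replicate 1 to replicate 2 had opposite signs in the vehicle and the dexamethasone pair, and in none was the difference between treatments tested. The neuronal and adhesion genes of long loci had the widest gap, 0.313 in vehicle and -0.0511 in dexamethasone. The sum of the neuron markers was highest in vehicle 1, though not every marker followed. Their part in this gap was not tested. Collagens and matrix genes had -0.238 and 0.0280, endothelial markers 0.138 and -0.0874, neuromuscular junction genes -0.0435 and 0.134, and ATF4 and amino acid genes -0.0853 and 0.0820. Sterol and fatty acid synthesis genes had -0.113 and 0.0494, Wnt genes 0.00496 and -0.143, myoblast and satellite cell genes 0.132 and -0.00616, and autophagy and lysosome genes -0.0605 and 0.0399. The medians of p53 targets (-0.0539 and 0.00514), glycolysis and hypoxia genes (-0.00532 and 0.00111) and chromatin regulators (0.00743 and -0.0130) were close to 0 in both pairs.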

How the results depend on the processing

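No paired analysis was possible because the replicate number is itself the factor compared, and treatment, the block that pairs the libraries, is already in the model. Leaving out that treatment term gave 1282 called genes (770 higher in replicate 1 and 512 higher in replicate 2). DESeq2's Wald test gave 3600 (1891 and 1709), edgeR's test against a minimum fold of 1.2 gave 2780 (1451 and 1329), and an adjusted p under 0.01 gave 3264 (1694 and 1570). Scaling by library size alone gave 7174 (1695 and 5479). Without 1 library, in a fit without the treatment term where a number or treatment is represented by a lone library assumed to vary like the others, 0 to 38 genes were called, 0 to 37 higher in replicate 1 and 0 to 1 higher in replicate 2. The other alternatives with all libraries, TMM without sarcomere genes, other filters and tests, an adjusted p under 0.1, thinning to the smallest total and corrections for length or GC content among them, gave 5484 to 7151 genes. Over 248 named genes and the settings with all 4 libraries, 3756 values kept their direction and side of the threshold, 204 lost and 6 gained a call, and 2 reversed: with the GC trend removed Srebf2 was 0.0090 and Tfeb 0.41 (adjusted p = 0.0059), against main values of -0.22 and -0.01. Without 1 library 7 values reversed, none of them past the threshold: Ccnd3 at 0.22 without vehicle 1 and 0.52 without dexamethasone 2, Nr3c1 at -0.12 and -0.0124 without the same libraries, Pax7 at 0.11 without vehicle 2 and 0.039 without dexamethasone 1 and Trim63 at -0.06 without dexamethasone 1. Their ranges over the 4 such fits were -1.68 to 0.52 for Ccnd3, -0.12 to 1.09 for Nr3c1, -0.78 to 0.11 for Pax7 and -0.06 to 0.85 for Trim63. In these fits most named genes that the main test called were no longer called. The cause of these changes was not tested.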

Other observations

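Genes of the neuromuscular junction were called in both directions, 6 of 19 each. Chrna1, a subunit of the muscle acetylcholine receptor, and Ache, which breaks acetylcholine down, were higher in replicate 1 (log2 ratios 0.73 and 0.97). Lrp4 and Dok7, which act with MuSK in receptor clustering, were higher in replicate 2 (-0.46 and -0.49). Dok7 did not pass with the GC trend removed (-0.171, adjusted p = 0.10). With the GC trend removed 7 were called higher in replicate 1 and 4 higher in replicate 2, and with library size alone 4 and 8. Among 23 ubiquitin ligases and adaptors of muscle atrophy and maintenance, 10 were called higher in replicate 1 and 4 higher in replicate 2 (7 and 7 with library size alone). The Kelch adaptors Klhl41, Klhl40 and Klhl31, which stabilise sarcomere proteins, had log2 ratios of 1.74, 0.89 and 0.80, against 0.45 for Trim63 (MuRF1) and 0.36 for Fbxo32 (atrogin-1), the classical atrophy ligases, and -0.61 for Fbxo40.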
